A study of Mus with 16 samples.

Results

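Heat shock chaperones are proteins that bind unfolded or partly folded proteins, and their genes were followed here in B16 melanoma, a transplantable mouse tumor line, grown under the skin of C57BL/6 mice. The members are 10 genes taken by symbol, whatever their values: Hspa1a, Hspa1b, Dnajb1, Hsph1, Hspa8, Hsp90aa1, Hsp90ab1, Hspb1, Hspe1 and Hspd1. They are 10 of 38087 genes in the deposited count table, and all 10 were among the 19340 genes that passed the filter on low counts. RNA of 16 tumors was sequenced, 4 in each of 4 groups: B cell-depleted mice given an antibody against PD-L1, wild-type (WT) mice given the same antibody, untreated B cell-depleted mice and untreated WT mice. Treatment began after 7 days of growth and consisted of 3 doses, 3 days apart, with removal of the tumors 3 days after the last. The question of the study was what B cells contribute to the action of checkpoint blockade on melanoma. The labels say depleted, while the table's columns for these mice are named BKO, and the means of removing B cells in these mice is not given. Age and sex of the mice are not given in the labels. Libraries are named by group and the letter A to D of their column.

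Cells meet damage to their proteins by activating the transcription factor HSF1, which raises the inducible chaperones within minutes to hours. Members of the HSP70 family clamp onto exposed stretches of a client protein in a cycle driven by ATP, J-domain proteins such as Dnajb1 start that cycle, and nucleotide exchange factors such as Hsph1 end it. HSP90 acts later, on clients that include kinases and steroid receptors, while Hspd1 and Hspe1 form the folding chamber of the mitochondrial matrix. Tumor cells often hold constitutive chaperones at high levels, and dissection or delay before lysis can itself induce the stress genes.

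Total counts per library ran between 12544573 and 35647409. CPM are read counts after scaling every library to the same TMM-adjusted total, which is its total count times a normalization factor from edgeR. These factors ran from 0.946 to 1.067. The 7 melanocyte genes used as markers of the tumor summed to between 17781 and 22495 CPM in every library. The 4 T cell markers summed to at most 1.07 CPM. Igkc, an immunoglobulin light chain gene, had no read in the 8 libraries of B cell-depleted mice and 26 and 39 reads over the libraries of treated and untreated WT mice. Ighm, the heavy chain gene, had 26 and 38 reads in treated and untreated B cell-depleted mice, against 54 and 97 in WT mice, while Ms4a1 (CD20) had 4 and 12, against 8 and 4, and Cd79b 18 and 21, against 9 and 16. Of 6 B cell markers 2 passed the filter on low counts, and neither was called in the comparisons below (lowest adjusted p = 0.343). The tissue is a mixture, so that fewer cells of a type and less RNA per cell cannot be told apart in any value below. Library B of the untreated B cell-depleted group was the lowest of all 16 in Hspa1a and Hsp90ab1 and the highest in Hsp90aa1 and Hspe1. Its GC slope, the slope of log2 CPM on the GC content of gene spans per 10 percentage points after centering each gene, was -0.72, against -0.46 to 0.32 in the other 15 libraries. The GC slope is made from the expression values themselves.

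The members covered a wide range of levels. Per kilobase of gene span and averaged over 16 libraries, Hsp90ab1, the constitutive cytosolic HSP90, had the highest level, 535 CPM per kb. Hspa8, the constitutive HSP70 (HSC70), came next with 218 CPM per kb. Hspe1 and Hspd1 had 57.7 and 49.7 CPM per kb, Hsp90aa1, the inducible HSP90, had 43.8 CPM per kb, and Dnajb1 had 16.3 CPM per kb. The lowest levels were those of Hsph1 (6.71 CPM per kb), the inducible HSP70 genes Hspa1b (4.995 CPM per kb) and Hspa1a (1.97 CPM per kb), and Hspb1 (1.72 CPM per kb), the small heat shock protein HSP27. Spans include introns, so that genes with long introns such as Hsph1 rank lower than they would per kilobase of mRNA. The listed span of Hsp90aa1, 12124 bases, is also longer than its RefSeq span of 5360 bases, so its rank depends on the span used. In CPM not divided by span, Hsph1 averaged 148, above the 60.9 of Dnajb1. With or without that division, Hsp90ab1 and Hspa8 were highest and Hspa1b, Hspa1a and Hspb1 lowest.

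Together the members summed to between 4109 and 6498 CPM, which is 0.411% to 0.650% of the TMM-adjusted total of a library. Hsp90ab1 alone held 36.6% to 62.7% of the members' sum, with the lowest share in library B of the untreated B cell-depleted group. The spread over libraries was widest in Hspa1a, Hspb1, Hspa1b and Hsph1, whose highest library was 3.25 to 7.11 times their lowest, against 1.51 to 3.04 times in the other 6. Hsph1, with 3.25 times, lay close to Hsp90aa1 (3.04) and Hspe1 (2.97). Its low level per kilobase comes with a span of 22090 bases. Hspd1 had the narrowest range, its highest library being 1.51 times its lowest, while Hspa1a had the widest, 7.11 times. Hspb1 rested on 22 to 137 counts per library and Hspa1a on 26 to 397, so both are the least precisely measured members, and an overlapping gene adds to this for Hspa1a.

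**Figure D1:**
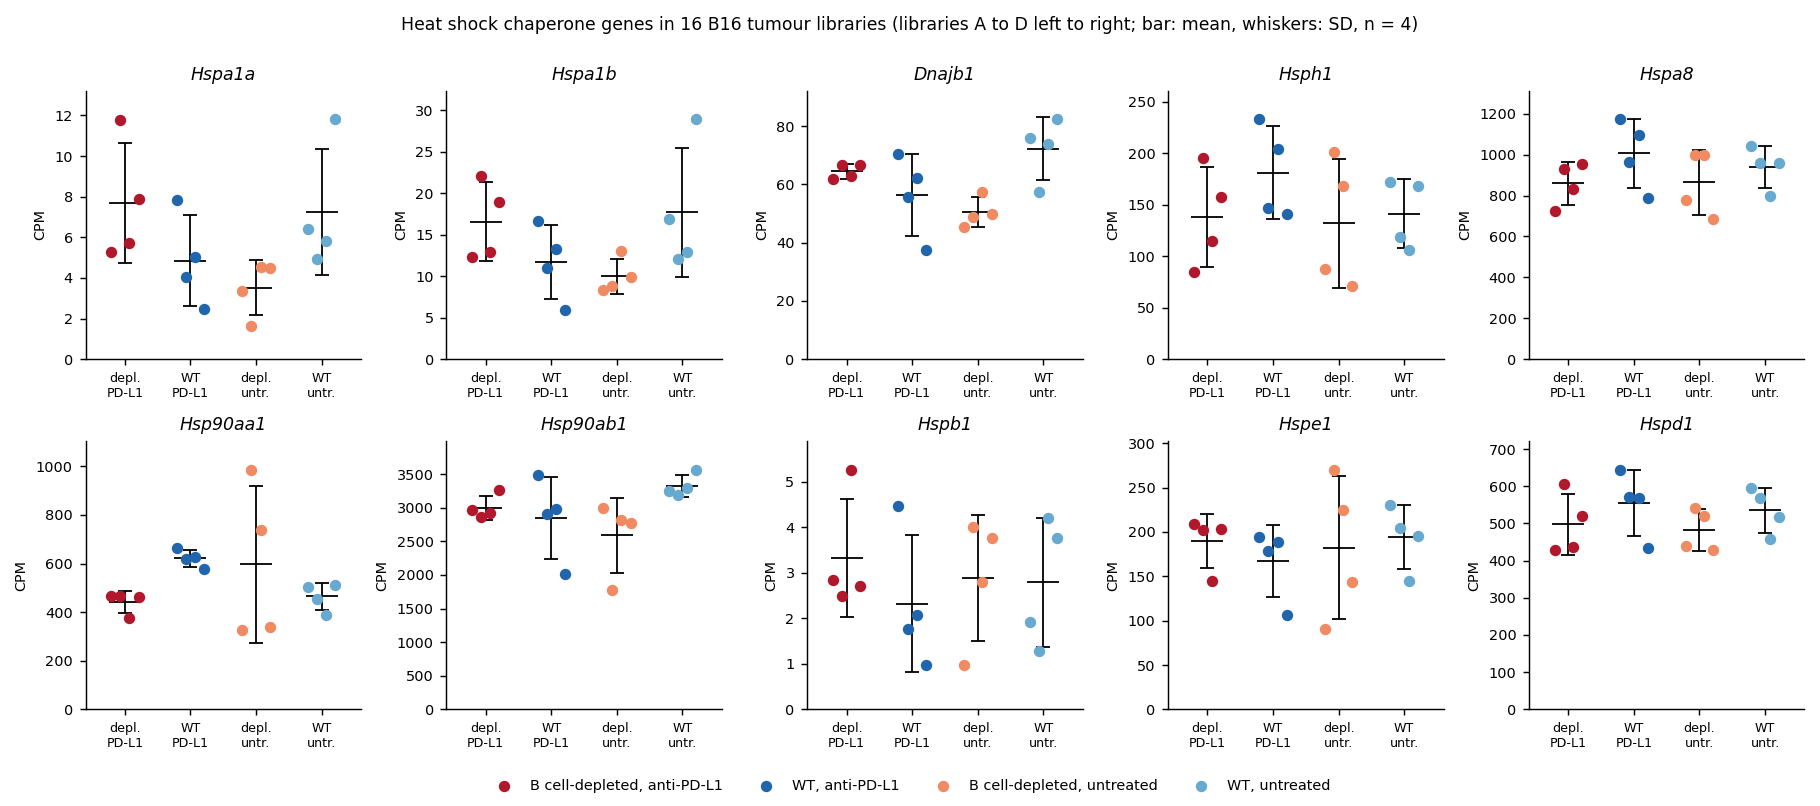
Level of the 10 chaperone genes in CPM (linear axis from 0) in each of 16 libraries, by group; points are libraries A to D, bars the mean and whiskers the SD over 4 libraries. Hspa1a, Hspa1b and Dnajb1 had their lowest group mean in untreated B cell-depleted tumors, and Hsp90aa1 in treated WT tumors lay between 577 and 665 CPM, above all libraries of treated B cell-depleted and untreated WT tumors.

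Hspa1a and Hspa1b encode the stress-inducible HSP70 proteins, which are nearly identical to each other, and lie side by side on the minus strand of chromosome 17 in mm10, at 34969199 to 34972154 and 34956436 to 34959238. Among treated tumors, Hspa1a had 5.29, 11.8, 5.73 and 7.90 CPM in libraries A to D of B cell-depleted mice, against 7.82, 4.03, 5.02 and 2.49 CPM in WT mice. Among untreated tumors it had 3.36, 1.66, 4.55 and 4.51 CPM in B cell-depleted mice, against 6.42, 4.91, 5.82 and 11.8 CPM in WT mice. The groups overlapped under treatment, whereas without treatment every B cell-depleted library lay below every WT library. Gm20481 on the opposite strand covers 75.3% of the Hspa1a span and was listed with 2537 counts over 16 libraries, against 2593 for Hspa1a. Whether strand was used in the counting is not given in the sources used here, so the reads of these 2 genes may not have been told apart.

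Hspa1b overlaps no other listed gene. It had 12.3, 22.1, 12.97 and 19.0 CPM in treated tumors of B cell-depleted mice, against 16.7, 10.9, 13.3 and 5.96 CPM in those of WT mice. In untreated tumors it had 8.31, 8.80, 13.01 and 9.95 CPM in B cell-depleted mice, against 16.9, 12.1, 12.9 and 28.9 CPM in WT mice. The groups overlapped with and without treatment. Library D of the untreated WT group was the highest of all 16 and library D of the treated WT group the lowest. The ratio of Hspa1a to Hspa1b counts ran from 0.188 to 0.532, and reads that match both copies could have been split between them in a way not given in the sources used here.

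Dnajb1, the HSP40 co-chaperone that delivers clients to HSP70, lies on the plus strand of chromosome 8 in mm10, at 83608175 to 83611902. It had 61.8, 66.5, 62.9 and 66.8 CPM in treated B cell-depleted tumors, against 70.5, 55.7, 62.3 and 37.4 CPM in treated WT tumors. It had 45.4, 48.8, 57.5 and 49.97 CPM in untreated B cell-depleted tumors, against 75.8, 57.2, 73.8 and 82.3 CPM in untreated WT tumors. The treated B cell-depleted libraries were the most alike of any group, with a coefficient of variation of 3.94%, and all 4 lay above all 4 untreated B cell-depleted libraries.

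Hsp90aa1 and Hsp90ab1 are the cytosolic HSP90 genes, of which Hsp90aa1 is the more inducible. Hsp90aa1 lies on the minus strand of chromosome 12 in mm10, at 110690605 to 110702728, and had 466, 467, 374 and 460 CPM in treated B cell-depleted tumors, against 665, 617, 626 and 577 CPM in treated WT tumors. Untreated, it had 325, 987, 738 and 339 CPM in B cell-depleted tumors, against 502, 455, 389 and 513 CPM in WT tumors. The untreated B cell-depleted libraries fell into 2 high and 2 low ones, on either side of the whole untreated WT group.

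Hsp90ab1 lies on the minus strand of chromosome 17 in mm10, at 45567775 to 45573271. It had 2963, 2864, 2915 and 3264 CPM in treated B cell-depleted tumors, against 3489, 2901, 2974 and 2014 CPM in treated WT tumors, and 2992, 1770, 2813 and 2772 CPM in untreated B cell-depleted tumors, against 3255, 3185, 3295 and 3567 CPM in untreated WT tumors. All untreated B cell-depleted libraries were below all untreated WT libraries. Within a library, the ratio of Hsp90aa1 to Hsp90ab1 counts needs no scaling. It was 0.128 to 0.163 in treated B cell-depleted tumors and 0.190 to 0.286 in treated WT tumors, which do not overlap. It was 0.109 to 0.557 in untreated B cell-depleted tumors and 0.118 to 0.154 in untreated WT tumors, which do. The ratio is not free of the GC slope, with which Hsp90aa1 had r = -0.86 and Hsp90ab1 0.78 (0.18 without 2 libraries). The treated groups did not overlap in that slope either, and its part in the ratio was not tested.

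The other members differed little between groups relative to their spread. Hsph1, an HSP110 protein that acts as exchange factor for HSP70, averaged 138 ± 49 CPM in treated B cell-depleted, 181 ± 45 in treated WT, 132 ± 63 in untreated B cell-depleted and 141 ± 34 in untreated WT tumors (SD, n = 4 each). Hspa8 averaged 861 ± 105, 1006 ± 168, 864 ± 159 and 939 ± 103 CPM in the same groups. No neighboring group means of these genes differed by more than the larger of their SDs.

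The mitochondrial chaperonin genes Hspd1 (HSP60) and Hspe1 (HSP10) lie head to head on chromosome 1, Hspd1 at 55077835 to 55088243 on the minus strand and Hspe1 at 55088132 to 55091307 on the plus strand in mm10, sharing 112 bases. Hspd1 averaged 497 ± 82 CPM in treated B cell-depleted, 555 ± 88 in treated WT, 482 ± 57 in untreated B cell-depleted and 535 ± 61 in untreated WT tumors (SD, n = 4 each). Hspe1 averaged 190 ± 30, 167 ± 41, 182 ± 80 and 194 ± 36 CPM in the same groups. Hspe1 varied more, and its lowest and highest libraries, with 91.1 and 270 CPM, were A and B of the untreated B cell-depleted group. Hspb1, a small chaperone that holds unfolded proteins without ATP, averaged 3.33 ± 1.30, 2.32 ± 1.51, 2.89 ± 1.38 and 2.79 ± 1.42 CPM in the same groups, a spread as wide as any difference between them.

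Several members shared the order of their group means. Hspa1b and Dnajb1 were highest in untreated WT tumors, followed by treated B cell-depleted, treated WT and untreated B cell-depleted tumors, and Hspa1a had the same order but for its first 2 groups. Hsp90ab1 had the order of Hspa1b, whereas Hsp90aa1 and Hsph1 were highest in treated WT tumors. Of the 30 steps between neighboring group means over the 10 members, 2 were larger than the larger SD of the groups concerned: the step in Hspa1b to treated WT from treated B cell-depleted tumors and the step in Hsp90ab1 to treated B cell-depleted from untreated WT tumors.

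The effect of B cell depletion on treated tumors was the study's main contrast. Hspa1a, Hspa1b and Hspb1 had the highest estimates and Hsp90aa1 and Hsph1 the lowest, but none passed the test. The log2 difference (B cell-depleted minus WT) was 0.67 ± 0.38 (SE) for Hspa1a, 0.51 ± 0.31 for Hspa1b, 0.19 ± 0.16 for Dnajb1, -0.49 ± 0.26 for Hsp90aa1 and -0.39 ± 0.31 for Hsph1. With edgeR's quasi-likelihood test and Benjamini-Hochberg adjustment over all genes tested, adjusted p-values of the members ran from 0.243 to 0.786. None of 10 was called at an adjusted p under 0.05, against 0.698% of all genes tested, and 0 of 10 had an unadjusted p under 0.05, against 25.0%. The share of 0.698% depended on library B of the untreated B cell-depleted group, which is outside this contrast but in its fit. Without that library edgeR called 3656 of 19637 genes, and again 0 of 10 members. DESeq2 and limma-voom also called 0. Of the members, 6 were higher and 4 lower in B cell-depleted tumors, with a median of 0.13 against 0.03 over all genes. Hsp90aa1 was the only member whose 4 B cell-depleted libraries all lay below all 4 WT libraries, an arrangement found in 11.8% of all genes. When only the 8 treated libraries were fitted, Hsp90aa1 was called (adjusted p = 0.0277), as were 2638 of 18512 genes.

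In untreated tumors Hspa1a, Hspa1b, Dnajb1 and Hsp90ab1 had the lowest estimates in B cell-depleted mice relative to WT mice. The log2 difference was -1.02 ± 0.38 for Hspa1a, -0.82 ± 0.31 for Hspa1b, -0.52 ± 0.16 for Dnajb1 and -0.36 ± 0.17 for Hsp90ab1, against 0.36 ± 0.26 for Hsp90aa1. With edgeR the lowest adjusted p was that of Dnajb1 (0.118) and none of 10 was called, against 0.889% of all genes. These 4 members had an unadjusted p under 0.05, which is 4 of 10 against 19.2% of all genes. DESeq2 and limma-voom called 0, with an adjusted p of 0.0561 for Dnajb1 in DESeq2. In total 2 members were higher and 8 lower, with a median of -0.14 against 0.04 over all genes. Hspa1a and Hsp90ab1 had all B cell-depleted libraries below all WT libraries, as 8.43% of all genes did. Library B of the B cell-depleted group had the lowest GC slope. Without it, the difference was -0.79 for Hspa1a, -0.75 for Hspa1b, -0.49 for Dnajb1, -0.20 for Hsp90ab1 and 0.02 for Hsp90aa1. In that fit 0 of 10 members were called, against 202 of 19637 genes.

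Treatment of WT mice went with lower estimates of the inducible HSP70 genes and a higher one of Hsp90aa1. The log2 difference (treated minus untreated) was -0.58 ± 0.38 for Hspa1a, -0.60 ± 0.31 for Hspa1b, -0.36 ± 0.16 for Dnajb1, 0.42 ± 0.26 for Hsp90aa1 and 0.36 ± 0.31 for Hsph1. With edgeR none of 10 was called (adjusted p from 0.177 to 0.847), against 0.00517% of all genes, which is 1 gene. That share depended on library B of the untreated B cell-depleted group, which is outside this contrast but in its fit. Without that library 4123 of 19637 genes were called, and again 0 of 10 members. Dnajb1 had an unadjusted p under 0.05, 1 of 10 against 26.4% of all genes, and DESeq2 and limma-voom called 0. The median was -0.22 against -0.01 over all genes. All treated libraries of Hsp90aa1 lay above all untreated ones, as in 14.8% of all genes. Fitted on the 8 WT libraries alone, Hsp90aa1 was called (adjusted p = 0.0158), together with 5441 of 18404 genes.

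Treatment of B cell-depleted mice went with estimates of the opposite sign in Hspa1a, Hspa1b, Dnajb1 and Hsp90aa1, but not in Hsph1 (0.07 ± 0.31). The log2 difference was 1.11 ± 0.38 for Hspa1a, 0.73 ± 0.31 for Hspa1b, 0.35 ± 0.16 for Dnajb1 and -0.43 ± 0.26 for Hsp90aa1. None of 10 was called by edgeR (lowest adjusted p = 0.289, Hspa1a), against 0.0672% of all genes, and DESeq2 and limma-voom called 0. Hspa1a, Hspa1b and Dnajb1 had an unadjusted p under 0.05, 3 of 10 against 10.4% of all genes. Hspa1a and Dnajb1 had all treated libraries above all untreated ones, as 2.61% of all genes did. Members higher in treated tumors numbered 8 and lower ones 2, with a median of 0.14 against -0.01 over all genes. Without library B of the untreated group the difference was 0.90 for Hspa1a, 0.68 for Hspa1b, 0.34 for Dnajb1 and -0.08 for Hsp90aa1. The 4 comparisons share libraries in pairs, so that a low untreated B cell-depleted group enters both comparisons made with it.

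**Figure D2:**
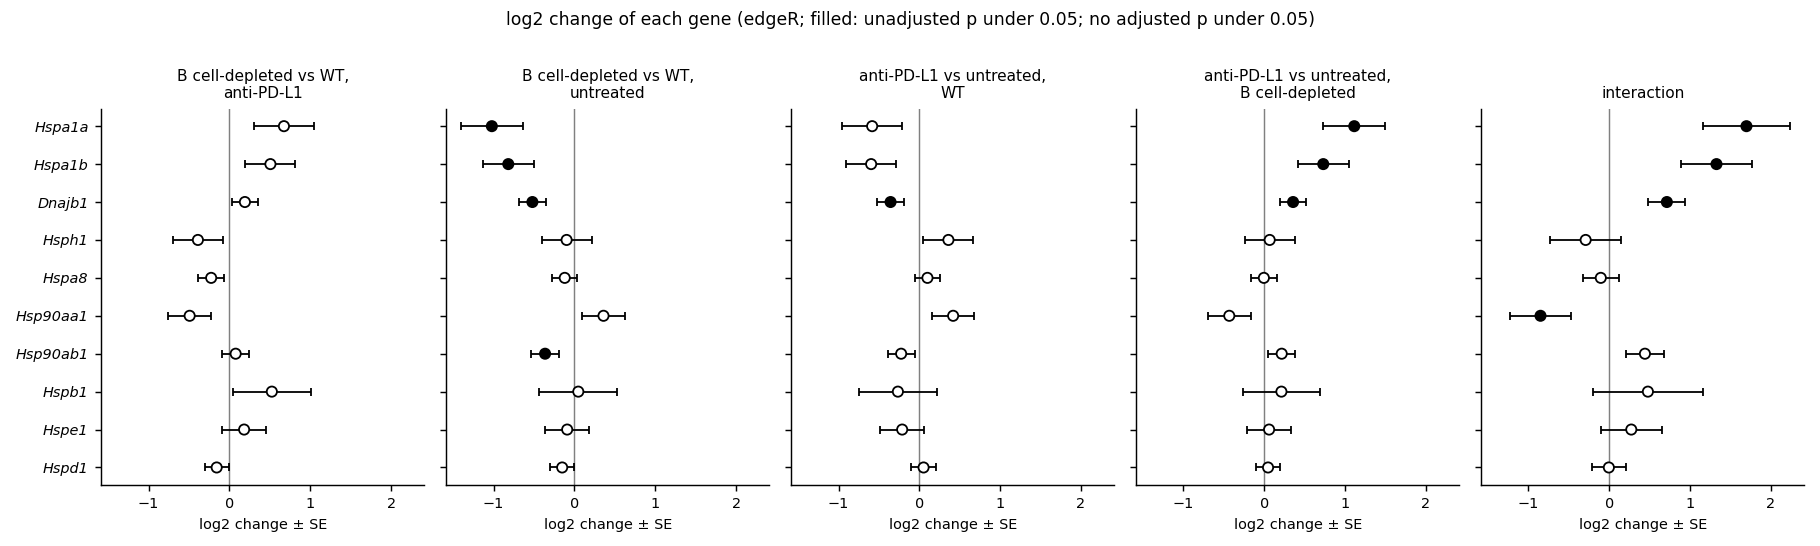
The log2 change of each member with its standard error in the 4 comparisons and the interaction, from edgeR; filled points have an unadjusted p under 0.05, and no adjusted p was under 0.05. The interaction of Hspa1a was 1.70 and that of Hsp90aa1 -0.85, the highest and the lowest of the 10.

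The interaction asks whether the B cell difference in treated tumors differed from that in untreated tumors. It was 1.70 ± 0.53 for Hspa1a, 1.32 ± 0.44 for Hspa1b, 0.71 ± 0.23 for Dnajb1 and -0.85 ± 0.37 for Hsp90aa1 on the log2 scale. With edgeR the adjusted p-values of the first 3 were 0.0565, 0.0658 and 0.0613 and that of Hsp90aa1 was 0.133, so that none of 10 was called, against 7.62% of all genes. These 4 had an unadjusted p under 0.05, 4 of 10 against 30.8% of all genes. limma-voom called 0, whereas DESeq2 called Hspa1a (adjusted p = 0.0174), Hspa1b (0.0280) and Dnajb1 (0.0312), along with 3242 of 18211 genes. The remaining members had adjusted p-values from 0.213 (Hsp90ab1, 0.44 ± 0.24) to 0.988 (Hspd1).

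In edgeR, whether a member passed the threshold depended on which library was left out. No library was left out with DESeq2, so its calls were not tested in this way. In edgeR without library A of the treated WT group Hspa1a, Hspa1b and Dnajb1 were called, without library D of the untreated B cell-depleted group Hspa1a and Hsp90aa1, and without its library A Hsp90aa1. Leaving out any of the other 13 libraries, B of that group included (1.49 for Hspa1a, -0.49 for Hsp90aa1), gave no call. With that library B left out, 1604 of 19637 genes were called in the interaction. For the libraries whose removal gave a call, the share of all genes called is not given here, so these calls cannot be set against it. Over the 16 libraries left out in turn, the interaction ran from 1.35 to 2.03 for Hspa1a, 0.98 to 1.54 for Hspa1b, 0.55 to 0.83 for Dnajb1 and -1.06 to -0.49 for Hsp90aa1. With the GC slope of the library as a covariate it was 1.02 for Hspa1a, 1.11 for Hspa1b and 0.60 for Dnajb1 (adjusted p = 0.400, 0.338 and 0.254), and 0.06 for Hsp90aa1 (adjusted p = 0.935).

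**Figure D3:**
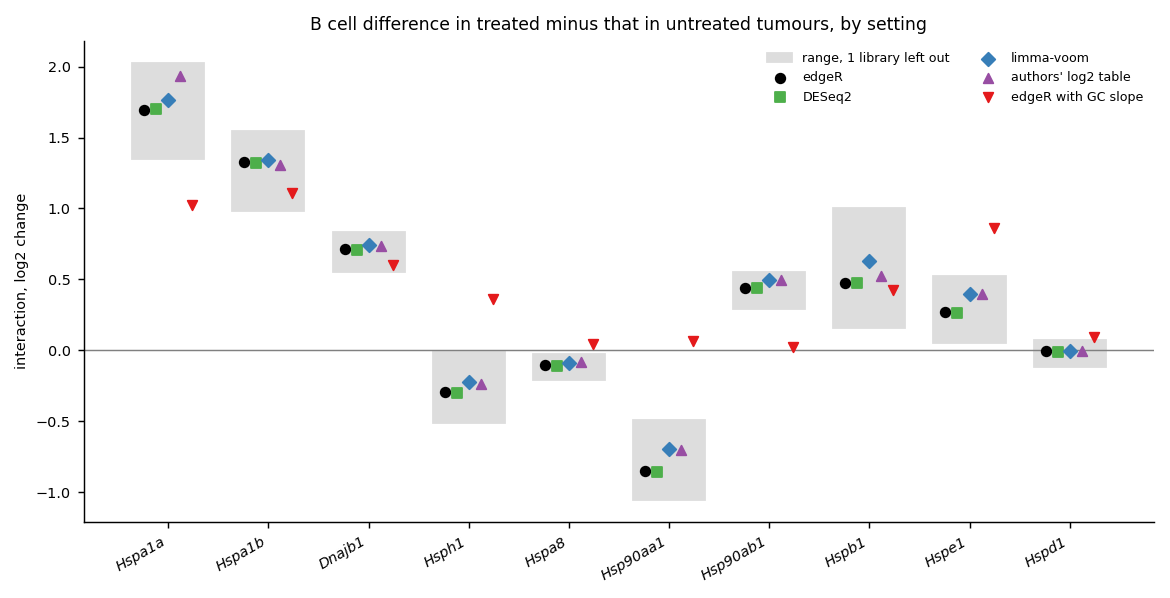
Interaction of B cell status and treatment (log2 change) for each member under 5 settings, with the grey bar spanning the values when 1 library was left out. Hspa1a, Hspa1b and Dnajb1 were above 0 under all settings drawn, while Hsp90aa1 was -0.85 in edgeR and 0.06 with the GC slope as a covariate.

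The GC slope differed between groups, at -0.04 to 0.22 in treated B cell-depleted, -0.46 to -0.09 in treated WT, -0.72 to 0.32 in untreated B cell-depleted and 0.14 to 0.25 in untreated WT tumors. It was set against the log2 CPM of each member over the 16 libraries, after the levels had been seen, in 10 relations. Hsp90aa1, whose span has 47.9% GC, fell as the slope rose (Pearson r = -0.86, permutation p adjusted over the 10 = 2e-04; Spearman rho = -0.85, 0.0005). Its r was -0.85 after the 2 libraries of most extreme slope were left out and -0.83 on deviations from group means, where the adjusted permutation p was 0.12. Hsp90ab1 (50.3% GC) had r = 0.78 (adjusted p = 0.00725) and rho = 0.46 (0.181), and Hspa1a (59.1% GC) r = 0.63 (0.0333) and rho = 0.37 (0.264). Without library D of the treated WT and library B of the untreated B cell-depleted group these were 0.18 and 0.09, so both relations rest on those libraries. The other 7 members had adjusted p-values of r from 0.106 to 0.713.

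**Figure D4:**
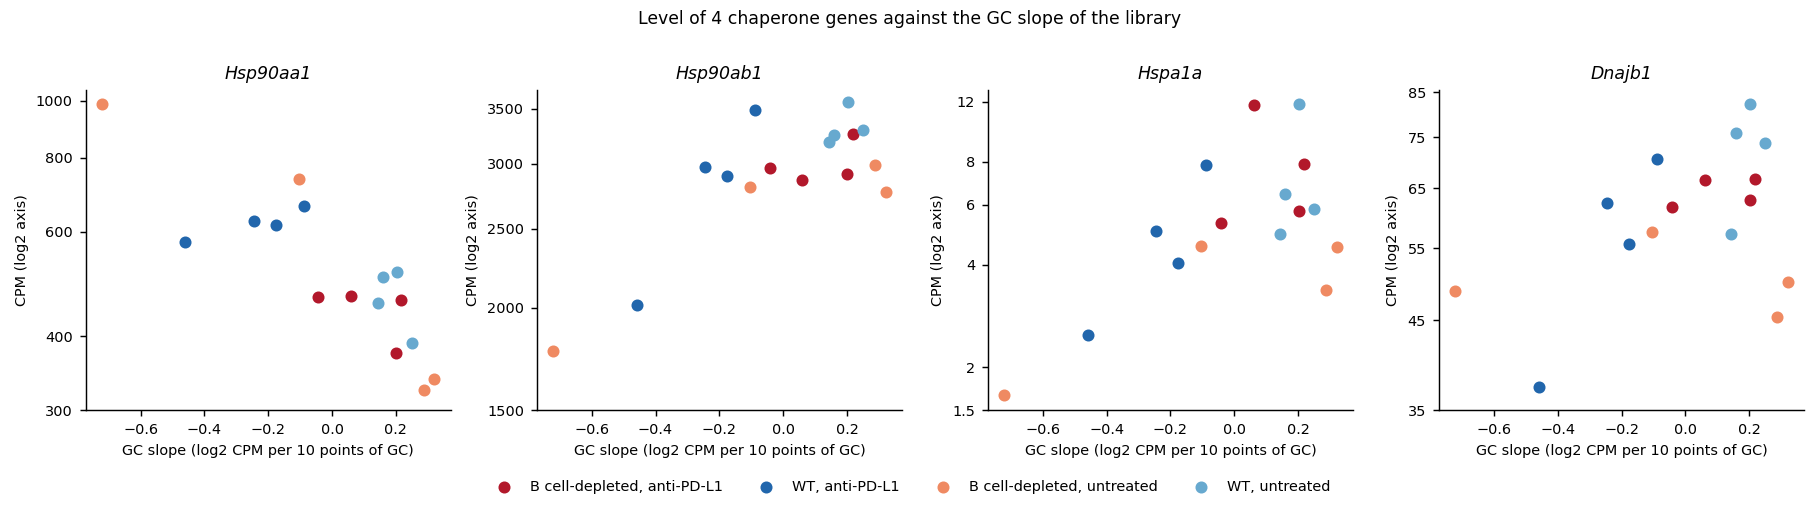
CPM of 4 members (log2 axis) against the GC slope of the library, with points colored by group. Hsp90aa1 ran downward over the whole range (r = -0.86), whereas the relations of Hsp90ab1 and Hspa1a rested on the libraries of lowest slope, at -0.72 and -0.46.

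Several members varied together from tumor to tumor, in pairs chosen as copies or partners and in other pairs. Outside the 5 chosen pairs, Hspa8 and Hspd1 had r = 0.90 and Hspa1a and Hsp90ab1 0.81, while Hspa1a and Hsph1 had 0.19. Of the 5 pairs tested, Hspa1a and Hspa1b had r = 0.91 over 16 libraries (rho = 0.93, r within groups = 0.87). Reads could have been split between these 2 copies. Hspa1a and Dnajb1 had r = 0.82 (rho = 0.93, within groups 0.72). Hspa8 and its exchange factor Hsph1 had r = 0.91 (rho = 0.88, within groups 0.90). Permutation p-values of r adjusted over the 5 pairs were at most 0.00015 for these 3 pairs, and those of rho at most 5e-05. Without the 2 libraries farthest from the median they had r = 0.96, 0.82 and 0.84. Hspe1 and Hspd1, the partners of the chaperonin, had r = 0.64 (adjusted p = 0.00807), rho = 0.45 (0.102) and r = 0.74 within groups, and 0.53 (adjusted p = 0.0622) without library D of the treated WT and library A of the untreated B cell-depleted group. Hsp90aa1 and Hsp90ab1 had r = -0.47 (adjusted p = 0.0681) and rho = -0.20 (0.452), with -0.02 when libraries B and C of the untreated B cell-depleted group were left out, so that any inverse relation rested on those libraries.

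Over all 45 pairs of members, 14 had an adjusted permutation p of r under 0.05. Ordered by likeness, Hspa1a, Hspa1b, Dnajb1 and Hsp90ab1 formed one set, with r from 0.69 to 0.91 in its 6 pairs (rho from 0.58 to 0.93, 0.51 to 0.96 without 2 libraries). Hsph1, Hspa8, Hsp90aa1, Hspe1 and Hspd1 formed another, with r from 0.53 to 0.91 in 10 pairs (rho from 0.45 to 0.88, 0.46 to 0.88 without 2 libraries). The 20 pairs between the sets had r from -0.47 to 0.51. These sets were formed after the correlations were seen, and they part Hsp90ab1 from Hsp90aa1 and the inducible HSP70 genes from their exchange factor Hsph1. On deviations from group means the pairs between the sets reached 0.64, so that the division was less sharp within groups.

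**Figure D5:**
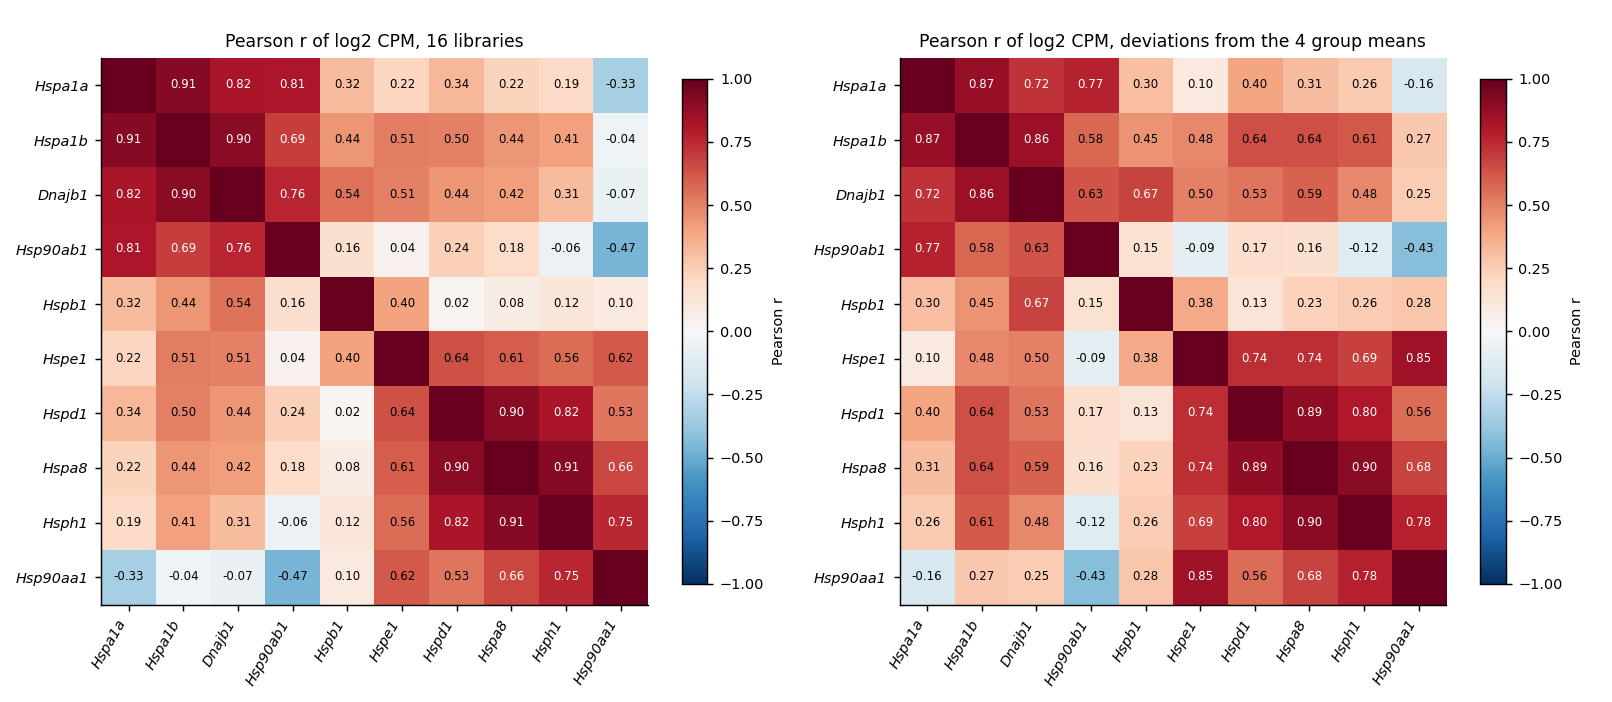
Pearson correlation of log2 CPM between members over 16 libraries (left) and of deviations from the 4 group means (right), with color from -1 to 1. Hspa1a, Hspa1b, Dnajb1 and Hsp90ab1 correlated at 0.69 or more with each other, and Hsp90aa1 at -0.47 with Hsp90ab1.

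Among all genes tested, those most like the mean of Hspa1a, Hspa1b, Dnajb1 and Hsph1 (each scaled to unit SD) over 16 libraries were Gm20481 (r = 0.89), which overlaps Hspa1a, Hnrnpm (0.87), a splicing factor, Exosc1 (0.84), an exosome subunit, 4930405D11Rik (0.83) and Surf6 (0.83), a nucleolar protein. Those most like the mean of the other 6 members were Rhno1 (0.91), Gm11221 (0.90), Mrpl39 (0.89), a mitochondrial ribosomal protein, Ahsa1 (0.88), which stimulates the ATPase of HSP90, and Bcas2 (0.88), a splicing factor. They were picked as the highest of all genes tested, so no p is given.

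Of 45 tested heat shock factors, co-chaperones and related genes, 7 were called in the interaction, against 7.62% of all genes. Those reported here were positive like Hspa1a: Bag3 (1.05), an HSP70 co-chaperone of selective autophagy, Cdc37 (0.80), which brings kinases to HSP90, Stub1 (0.57), a ubiquitin ligase for chaperone clients, the heat shock factor gene Hsf4 (0.83), the small heat shock gene Hspb2 (0.97) and Dedd2 (1.13), with adjusted p-values from 0.0285 to 0.0498. Bag3 had 68.5, 99.6, 83.8 and 98.3 CPM in treated B cell-depleted tumors, against 80.8, 57.9, 64.2 and 44.5 CPM in treated WT tumors, and 72.1, 41.6, 71.0 and 73.0 CPM in untreated B cell-depleted tumors, against 99.6, 84.9, 94.8 and 96.8 CPM in untreated WT tumors. All untreated B cell-depleted libraries of Bag3 lay below all untreated WT libraries, as in 8.43% of all genes. Over the whole list 22 genes were positive and 23 negative, with a median of -0.01 against 0.00 over all genes. Stub1 lies wholly inside a lincRNA on the opposite strand, so its reads may not be its own alone.

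Lists of other compartments were read the same way. Of 8 subunits of the CCT chaperonin, which folds actin and tubulin, and of 11 mitochondrial chaperones and proteases, 0 were called in any comparison (lowest adjusted p = 0.0708 and 0.0614). Of 19 endoplasmic reticulum chaperones, 3 were called in the interaction only, 3 of 19 against 7.62% of all genes: Canx at -0.99, Sdf2l1 at 1.31 and Creld2 at 1.14. Of 15 immediate early genes, which respond within minutes to handling and stress, 4 were called in the interaction, against 7.62% of all genes, all positive: Jund (1.06), Ier2 (1.41), Ier3 (1.31) and Dusp1 (1.29), and 11 of the 15 were positive, with a median of 0.79. Summed over the 15 genes, the level was 433 to 632 CPM in treated B cell-depleted tumors, against 394 to 482 in treated WT tumors, and 350 to 630 CPM in untreated B cell-depleted tumors, against 602 to 712 in untreated WT tumors.

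The calls in these lists were lost under several settings. With the slope as a covariate, 13 of the 14 genes called in the interaction had an adjusted p of at least 0.05. Fitted on the log2 values normalized by the authors, 13 of the 14 again missed the threshold, and without the filter on low counts 6 did. Leaving out library C or D of the treated B cell-depleted group, B, C or D of the treated WT group, C of the untreated B cell-depleted group or any of the untreated WT group lost 9 to 13 of the 14, and leaving out any of the other 6 lost 0 to 7.

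Markers of red blood cells had group means in the same order as those of Hspa1b and Dnajb1. All 3 erythroid genes (Hba-a1 at 4.44, Hba-a2 at 4.39 and Alas2 at 3.44) were called in the interaction, against 7.62% of all genes. Their sum was 146 to 755 CPM in treated B cell-depleted tumors, against 62.1 to 189 in treated WT tumors, and 29.7 to 104 CPM in untreated B cell-depleted tumors, against 118 to 1484 in untreated WT tumors. Library D of the untreated WT group, the highest in Hspa1a and Hspa1b, had the lowest erythroid sum of its group (118 CPM). Markers of macrophages, endothelium and fibroblasts had 0 calls in any comparison. Of the muscle genes Ttn was called in untreated tumors, against 0.889% of all genes. It had 1.53 to 5.26 CPM in B cell-depleted and 1.01 to 1.35 CPM in WT mice. The part of blood content, handling stress and GC slope in the chaperone estimates was not tested. The fit with the GC slope as a covariate cannot tell slope from group in treated tumors, whose groups did not overlap in slope.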

How the data were processed

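Read counts per gene were deposited for 38087 genes on build mm10. The sequencing and alignment were done for the authors by a contract laboratory with an Ion total RNA kit after removal of ribosomal RNA, and for the aligner, the counter and the annotation release the entry is: not given in the sources used here. Listed gene lengths equal the whole span, introns included, for all 38087 genes, and how reads were assigned, to which strand or where spans overlap, is also not given. The deposited table also gives the GC content of each span in percent. A second table holds log2 values normalized by the authors, with DESeq named in the labels, and was used only as an alternative; 13 damaged cells led to 11 genes being left out, with 469 that did not vary. Tables of the authors' own fold changes, fold ratios and p-values were not used, nor were 32 columns of other per-library values.

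Counts were tested in R 4.3.3 with edgeR 4.0.16 (quasi-likelihood F test, robust, TMM, filterByExpr over 4 groups, 2-sided), with 16 libraries in 1 fit, and adjusted by Benjamini-Hochberg. CPM are counts scaled to a common TMM-adjusted library total, with a prior count of 2 on the log2 scale. Correlations used 100000 permutations. DESeq2 1.42.0 and limma 3.58.1 were alternatives. The script was tested on simulated data. The design text also mentions an intratumoral agent, for which no sample label gives a status. With 4 mice per group in the series' text, libraries were treated as separate animals. Gene names of Adgre1 and RefSeq spans came from the GRCm38.p6 gene table. Hspa14 was left out because 2 rows carry its symbol. A called gene of the co-chaperone list is not reported here. Named were all members, the called genes of each list (at most 3 of lowest p otherwise), and 5 genes of most like pattern for each mean. Members and lists were chosen with earlier results of these data known.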

Additional observations from a re-analysis of the deposited data

Results flagged for a closer look

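Library C of the treated B cell-depleted group stood apart from the other 3 libraries of its group in 3 members. It had the lowest Hsp90aa1, 374 CPM against 460 to 467 CPM in the others, and the lowest Hspe1, 145 CPM against 203 to 208 CPM. It had the highest Hspb1, 5.27 CPM against 2.49 to 2.84 CPM. In each case the gap to the nearest library, divided by the range of the group, exceeded Dixon's 95% critical value for 4 samples. Of 40 checks of a member in a group these 3 were past it. About 1 in 20 of all checks would pass by chance, so 3 of 40 is close to that rate. The checks are not independent, since Hsp90aa1 and Hspe1 had r = 0.85 on deviations from group means. Without library C the Hspb1 difference between treated B cell-depleted and WT tumors was 0.20 on the log2 scale, against 0.52 with it.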

How the results depend on the processing

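Among the counts of members called, 0 in each comparison, 3 changed with the setting: fitting only the groups compared gave 1 (Hsp90aa1) in treated B cell-depleted against WT tumors and 1 (Hsp90aa1) in treated against untreated WT tumors, DESeq2 gave 3 in the interaction, and leaving out 1 library gave 0 to 3 there. The DESeq2 size factors in edgeR, limma-voom, no filter on low counts, the GC slope, the sums of near-identical copies or pseudogenes and the normalized log2 table gave 0 throughout. Except where stated above, the share of all genes called under these settings is not given here, so these counts cannot be set against it. With 1 library left out, the median log2 change of the members ran from -0.025 to 0.33 (without untreated B cell-depleted B) in treated against untreated B cell-depleted tumors and from 0.12 (without untreated B cell-depleted A) to 0.45 in the interaction. Hspe1 with Hspd1 gave r = 0.53 without 2 libraries.

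With the GC slope as a covariate, signs turned in Hsp90ab1 (-0.18) in treated B cell-depleted against WT tumors, in Hsp90aa1 (-0.10) in untreated B cell-depleted against WT tumors, in Hsph1 (-0.030), Hsp90aa1 (-0.14), Hsp90ab1 (0.092) and Hspd1 (-0.015) in treated against untreated WT tumors, in Hspa8 (0.045) in treated against untreated B cell-depleted tumors and in Hsph1 (0.36), Hspa8 (0.045), Hsp90aa1 (0.063) and Hspd1 (0.093) in the interaction. Hspa8 also turned with limma-voom (0.0036) and without the filter (0.0013) in treated against untreated B cell-depleted tumors. With 1 library left out, signs turned in Hsp90ab1 (-0.042 to 0.21) in treated B cell-depleted against WT tumors, in Hsph1 (-0.36 to 0.11), Hspe1 (-0.33 to 0.13) and Hspb1 (-0.19 to 0.33) in untreated B cell-depleted against WT tumors, in Hspd1 (-0.028 to 0.15) in treated against untreated WT tumors, in Hspa8 (-0.10 to 0.073), Hsph1 (-0.15 to 0.35), Hspd1 (-0.067 to 0.11), Hspb1 (-0.11 to 0.39) and Hspe1 (-0.16 to 0.31) in treated against untreated B cell-depleted tumors, and in Hspd1 (-0.12 to 0.074) in the interaction. The cause was not tested. Over the settings other than leaving out a library, 509 of the values compared kept their sign and side of the threshold, 34 lost and 5 gained it.

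No paired analysis was possible because the columns carry a letter and not the replicate numbers of the labels, so a replicate block was not run. Counts limit Hspb1 and Hspa1a, whose lowest libraries hold 22 and 26 reads.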
